A study of Mus musculus with 3 samples.

Results

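Thy1, Lum, Dcn, Postn, Prrx1, Twist1, Twist2, Pdgfrb, Acta2 and Tagln are 10 genes commonly read as markers of fibroblasts and other mesenchymal cells. They were followed in mouse embryonic stem (ES) cells of strain C57BL/6 that had lost, or regained, the Polycomb protein Pcgf1. The members were chosen by name: a gene was measured where its symbol stood alone as the gene name in a file. By this rule 10 of 10 were found among 25941 genes in wild-type cells, and 9 of 10 were found in each of the other samples, because Tagln shared a locus with Sidt2 there. Over the 3 samples together, 9 of 10 members and 25350 genes in all could be compared.

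RNA-seq of poly(A) RNA covered 1 sample each of wild-type ES cells (WT), ES cells with Pcgf1 knocked out by Cas9 (labelled Pcgf1KO, here Pcgf1-/-) and those knockout cells given back a FLAG-tagged Pcgf1 by lentivirus (labelled Pcgf1KO+Pcgf1_flag, here Pcgf1-/-+Pcgf1 or the rescued cells). Puromycin was used to select both the knockout cells, which grew from a single colony, and the rescued line. All lines were kept on mouse embryonic fibroblasts whose division had been stopped with mitomycin-C, in medium with serum and leukemia inhibitory factor, so fibroblast RNA can be present in every sample. Whether the fibroblasts were removed before RNA was taken is not given in the sources used here. In bulk RNA, fewer fibroblasts and less RNA per fibroblast cannot be told apart, and neither can be told apart from a change in the ES cells themselves. Each condition has 1 sample, so differences were not tested, and no value below has an error from replicates.

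Fibroblasts make and organise the extracellular matrix. Lum (lumican), Dcn (decorin) and Postn (periostin) are secreted matrix proteins. Prrx1, Twist1 and Twist2 are transcription factors of mesenchymal cells in the embryo, and both Twist proteins act through a basic helix-loop-helix domain. Pdgfrb is a receptor for platelet-derived growth factor, found on fibroblasts and on the contractile cells around vessels. Acta2 (smooth muscle actin) and Tagln (transgelin) belong to the contractile apparatus and are targets of serum response factor. Thy1 is a surface glycoprotein of fibroblasts, but also of neurons and T cells. Pcgf1 belongs to a variant of Polycomb repressive complex 1 that is brought to unmethylated CpG-rich promoters by Kdm2b.

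Because that complex is drawn to CpG dinucleotides, the sequence at the start of 3 members is shown, with each CpG in capitals. These are both Twist genes, which went opposite ways between the samples, and Acta2 as a contrast with fewer CpG. The sequences are the 250 bases upstream of the RefSeq start, 5′ to 3′ on the strand of the gene, build GRCm38.p6. Windows of this kind matched 5 of the 10 members. Twist1 is read from chr12:33957421-33957670 on the plus strand, Twist2 from chr1:91801211-91801460 on the plus strand and Acta2 from chr19:34255374-34255623 on the minus strand. The RefSeq start of Acta2 lies 217 bases inside the gene as GENCODE gives it, so most of its window is within the annotated gene.
Twist1: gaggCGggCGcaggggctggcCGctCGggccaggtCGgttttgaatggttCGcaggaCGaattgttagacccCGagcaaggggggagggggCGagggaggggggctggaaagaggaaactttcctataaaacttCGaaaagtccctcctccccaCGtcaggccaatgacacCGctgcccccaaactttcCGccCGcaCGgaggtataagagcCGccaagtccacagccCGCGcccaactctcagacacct
Twist2: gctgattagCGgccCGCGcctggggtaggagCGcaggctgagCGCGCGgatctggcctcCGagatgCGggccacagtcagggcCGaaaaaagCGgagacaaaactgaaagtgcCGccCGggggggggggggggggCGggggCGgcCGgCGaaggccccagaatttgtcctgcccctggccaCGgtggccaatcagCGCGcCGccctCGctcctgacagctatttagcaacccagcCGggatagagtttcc
Acta2: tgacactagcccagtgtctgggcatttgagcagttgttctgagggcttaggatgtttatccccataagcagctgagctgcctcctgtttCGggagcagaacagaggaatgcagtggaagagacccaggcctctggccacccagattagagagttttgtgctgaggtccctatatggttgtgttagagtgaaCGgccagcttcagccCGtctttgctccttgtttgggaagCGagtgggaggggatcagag
Twist2 has 23 CpG in this window and Twist1 has 18, against 4 in Acta2. Over 32841 promoter windows of the same length the median was 6 CpG, and 13.3% held as many as Twist2 or more, 21.7% as many as Twist1 or more and 62.2% as many as Acta2 or more. Prrx1 also had 4 CpG, as did the Postn window next to its annotated start. The files hold no measurement of binding or methylation, so these counts describe the sequence only.

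The files give FPKM, fragments per kilobase of transcript scaled to the fragments sequenced, for each transcript event, and a gene's level here is the larger of its summed first-exon and last-exon rows. FPKM is a level per length, so levels of different genes can be set side by side. The files hold no counts. Low values nevertheless piled up in steps: among genes with a single annotated transcript of at least 2000 bases, the first step of FPKM times kilobases was 0.0517 in WT, 0.0480 in Pcgf1-/- and 0.0498 in the rescued cells. If that step is 1 fragment, a member's approximate number of fragments follows from its level and transcript length. These estimates ignore the shorter effective length that the quantification may have used. Pcgf1 itself, by the same rule, had 13.95 FPKM in WT, 5.88 in Pcgf1-/- and 7.86 in the rescued cells. The paper reports a truncated, frame-shifted Pcgf1 transcript in the knockout cells and no Pcgf1 protein there by Western blot. It also reports that FLAG-tagged Pcgf1 was immunoprecipitated from the rescued cells. These FPKM do not separate truncated from intact transcripts, so they do not measure the loss or return of the protein. In 57 genes the level was above 5 FPKM in one sample and exactly 0 in another, so a 0 is given below only as listed.

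Most of the 10 markers were low in all 3 samples. At or above 1 FPKM stood 4 members in WT (Tagln, Thy1, Acta2 and Twist1), 3 of the 9 measured in Pcgf1-/- (Thy1, Twist1 and Acta2) and 4 of 9 in Pcgf1-/-+Pcgf1 (Thy1, Acta2, Dcn and Twist2). Pou5f1, the core pluripotency factor Oct4, had 669.5 FPKM in WT, 518.3 in Pcgf1-/- and 625.9 in the rescued cells. Of the matrix proteins among the members, Postn was listed at 0 in every sample. Lum did not pass 0.08 FPKM and Dcn did not pass 1.18 FPKM. Other fibroblast and matrix genes, given below, ranged in WT from 0 FPKM (such as Fmod) to 227 FPKM (Sparc).

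**Figure D1:**
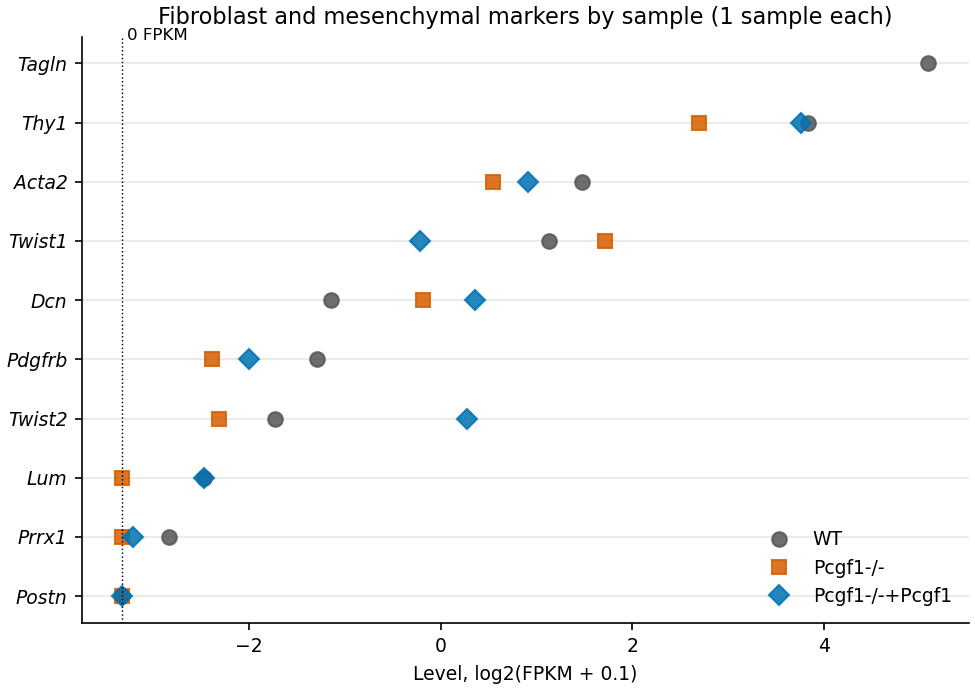
Level of each member in each sample, as log2(FPKM + 0.1) on the horizontal axis, with 1 point per sample and members ordered by their level in WT; the dotted line marks 0 FPKM. Tagln has a point for WT only, Postn lies at 0 in every sample, and Twist1 is the only plotted member highest in Pcgf1-/-.

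Thy1 (ENSMUSG00000032011, plus strand of chromosome 9, 44043384 to 44048579 in GENCODE vM21) had 14.2 FPKM in WT, 6.39 in Pcgf1-/- and 13.5 in the rescued cells. WT and the rescued cells were close to each other, and Pcgf1-/- stood apart below them. The level in Pcgf1-/- was 2.22-fold lower than in WT, and that in Pcgf1-/-+Pcgf1 was 2.11-fold above Pcgf1-/-. These levels correspond to about 477, 231 and 469 fragments, more than for any other member measured in all samples. On the scale of log2(FPKM + 0.1) Pcgf1-/- stood at -1.14 relative to WT, and the ratio of Pcgf1-/-+Pcgf1 to Pcgf1-/- was 1.06, both just past 2-fold.

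Among 8623 genes with at least 1 FPKM in every sample, the genes whose course over the 3 samples lay nearest to that of Thy1 were Timp3, Acss2 and Fbxo16. Likeness was the Euclidean distance of log2(FPKM + 0.1) centred on each gene's mean. The distance was 0.0298 for Timp3, an inhibitor of matrix metalloproteinases, which had 2.39 FPKM in WT, 1.003 in Pcgf1-/- and 2.197 in the rescued cells. Acss2 and Fbxo16 lay at distances of 0.0425 and 0.0518. A course over 3 points is matched closely by many genes, and nothing about shared control follows from it.

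Among the matrix proteins of the member list, only Dcn rested on more than a few fragments, so a common direction could not be read. Dcn (ENSMUSG00000019929, plus strand of chromosome 10, 97479609 to 97518143) had 0.352 FPKM in WT, 0.779 in Pcgf1-/- and 1.18 in the rescued cells, or about 12, 29 and 42 fragments. Dcn was thus lowest in WT and highest in the rescued cells. Its log2 ratio was 0.96 for Pcgf1-/- over WT, just short of 2-fold, and 1.502 for Pcgf1-/-+Pcgf1 over WT. All of the Dcn signal came from transcripts with the first exon at 97479500 to 97479789, and a second listed first exon at 97482350 to 97482547 was at 0.

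Lum, a close relative of decorin and its neighbour on the same chromosome (97565128 to 97572703), had 0.08 FPKM in WT and 0.0799 in Pcgf1-/-+Pcgf1 and was listed at 0 in Pcgf1-/-. The level in WT corresponds to about 4 fragments, so a presence or absence of Lum was not detectable at this depth with any precision. Postn (chromosome 3, 54361109 to 54391037) was listed at 0 in all 13 of its rows in each sample, which include 4 first exons.

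Twist1 and Twist2 differed in their course. Twist1 (ENSMUSG00000035799, plus strand of chromosome 12, 33957671 to 33959829) had 2.09 FPKM in WT, 3.19 in Pcgf1-/- and 0.763 in the rescued cells. It was highest in Pcgf1-/- and lowest in the rescued cells, at about 66, 108 and 25 fragments. Its log2 ratio was 0.59 for Pcgf1-/- over WT, -1.93 for Pcgf1-/-+Pcgf1 over Pcgf1-/- and -1.34 for Pcgf1-/-+Pcgf1 over WT.

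Twist2 (ENSMUSG00000007805, plus strand of chromosome 1, 91801461 to 91848028) had 0.202 FPKM in WT, 0.101 in Pcgf1-/- and 1.12 in the rescued cells. It was lowest in Pcgf1-/- and highest in the rescued cells, the opposite order to Twist1. The log2 ratio was 2.59 for Pcgf1-/-+Pcgf1 over Pcgf1-/- and 2.01 over WT, the highest positive ratios of any member. The Twist2 levels of WT and Pcgf1-/- rest on about 5 and 3 fragments, that of the rescued cells on about 30. In Pcgf1-/- the level of Twist1 was thus far above that of Twist2, whereas in Pcgf1-/-+Pcgf1 Twist2 stood above Twist1. A noncoding gene on the opposite strand (Gm29100) and one on the same strand (Gm29101) overlap Twist2, and no source used here says that reads were counted by strand.

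Prrx1 (chromosome 1, 163245119 to 163313710, minus strand) was close to 0. Its level of 0.0402 FPKM in WT came from a first exon inside the gene (163289179 to 163289224), and its level of 0.0082 in Pcgf1-/-+Pcgf1 from the outer first exon (163312395 to 163313672). Prrx1 was listed at 0 in Pcgf1-/-, and the last-exon row was at 0 in every sample. The Prrx1 ratios, which enter the medians, counts and plots of the members below, therefore compare different first exons and carry little information.

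Pdgfrb (ENSMUSG00000024620) had 0.309 FPKM in WT, 0.0913 in Pcgf1-/- and 0.151 in the rescued cells. Pcgf1-/- was lowest and WT highest, at about 32, 10 and 16 fragments for WT, Pcgf1-/- and Pcgf1-/-+Pcgf1. On the log2 scale Pcgf1-/- lay at -1.10 against WT, just past 2-fold, and without a pseudocount the level in WT was 3.38-fold that in Pcgf1-/-. The ratio of Pcgf1-/-+Pcgf1 to Pcgf1-/- was 0.39.

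Of the 5 listed genes for PDGF ligands and the other receptor, 4 were measured in all samples and 0 of 4 passed 2-fold in any of the 3 comparisons. Over all genes 6.34% to 8.57% passed in these comparisons. Pdgfa, the highest of them and a ligand of the other receptor, had 11.2 FPKM in WT, 16.7 in Pcgf1-/- and 13.5 in the rescued cells. Over these 4 genes the median log2 ratio for Pcgf1-/- over WT was 0.41. Pdgfra was not measured here.

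Acta2 (ENSMUSG00000035783, minus strand of chromosome 19, 34241090 to 34255590) had 2.69 FPKM in WT, 1.36 in Pcgf1-/- and 1.78 in the rescued cells. WT was highest and the 2 other samples were nearer to each other, at about 106, 58 and 73 fragments for WT, Pcgf1-/- and Pcgf1-/-+Pcgf1. On the log2 scale Pcgf1-/- lay at -0.93 against WT and did not reach 2-fold.

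Tagln (ENSMUSG00000032085, minus strand of chromosome 9, 45929619 to 45936058) had 34.0 FPKM in WT, the highest level of any member. In the other samples it could not be measured. The files for Pcgf1-/- and Pcgf1-/-+Pcgf1 list a locus named Tagln,Sidt2 with 33 rows each, and 0 of these rows lie inside Tagln. The first exon with a value in that locus, at 45954724 to 45955247, is that of the neighbour Sidt2. No statement about Tagln between samples can therefore be made.

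Between Pcgf1-/- and WT, 2 of the 9 measured members passed 2-fold on FPKM plus 0.1, Thy1 and Pdgfrb, both lower in Pcgf1-/-. Over all 25350 genes 7.14% passed in either direction, 4.98% lower and 2.16% higher, and among the 13424 genes above 0 in one of the samples 13.5% passed. The median log2 ratio of the 9 members was -0.58, against -0.12 over those 13424 genes. Acta2, at -0.93, and Dcn, at 0.96, lay just inside the limit and Thy1 and Pdgfrb just outside it, so the count turns on small differences. Scaling the samples by the median of ratios moved the log2 ratios of FPKM for Pcgf1-/- over WT by 0.11, and less for low genes on FPKM plus 0.1. Dcn then passed 2-fold at 1.05. With 9 genes, 1 gene is a large part of the share, and nothing particular to the members follows from these counts.

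Between Pcgf1-/-+Pcgf1 and Pcgf1-/-, 3 of 9 members passed 2-fold: Thy1 and Twist2 were higher in the rescued cells and Twist1 was lower. Over all genes 8.57% passed, 6.35% higher and 2.22% lower, and 15.9% of the 13700 genes above 0 in one of these samples. The median log2 ratio was 0.39 for the members and 0.05 for those 13700 genes. Both comparisons use the same Pcgf1-/- sample, so a value that happened to be low there moves both ratios.

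Between Pcgf1-/-+Pcgf1 and WT, 3 of 9 members passed 2-fold, Dcn and Twist2 higher and Twist1 lower in the rescued cells, against 6.34% of all genes (3.99% higher and 2.36% lower) and 11.6% of the 13824 genes above 0 in one of these samples. The median log2 ratio was -0.08 for the members and -0.07 for those 13824 genes. Thy1, at -0.08, and Lum differed little between these samples. The rescued cells thus held a level of Thy1 close to that of WT, and levels of Dcn, Twist1 and Twist2 more than 2-fold away from it.

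**Figure D2:**
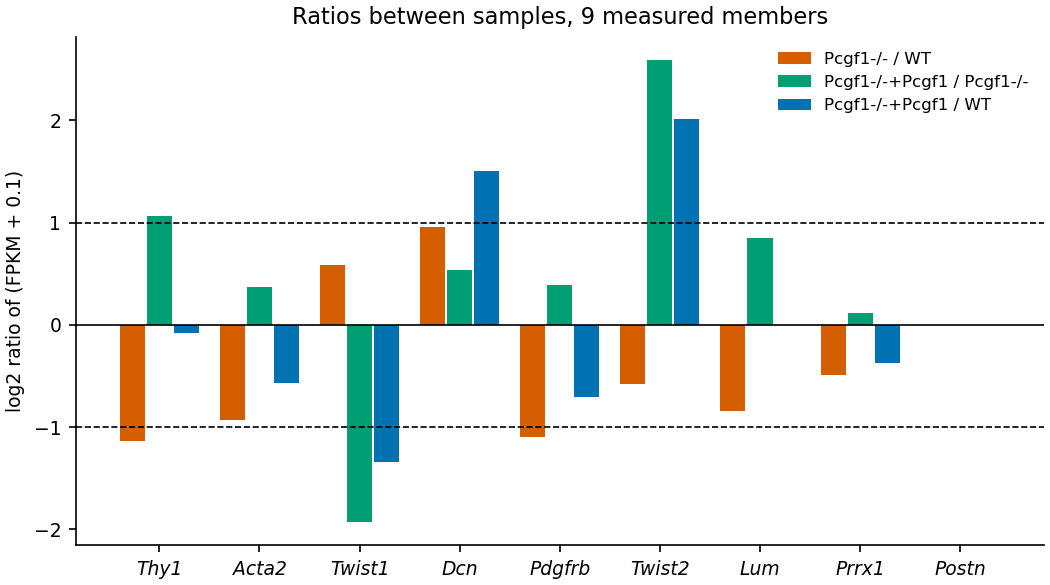
log2 ratio of (FPKM + 0.1) for the 9 members measured in all samples, with 1 bar per comparison and dashed lines at 2-fold; there is 1 sample per condition and no error bar. Twist1 and Twist2 point in opposite directions in each comparison, Thy1 passes 2-fold against Pcgf1-/- on both sides, and Postn has no bar because it is listed at 0.

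**Figure D3:**
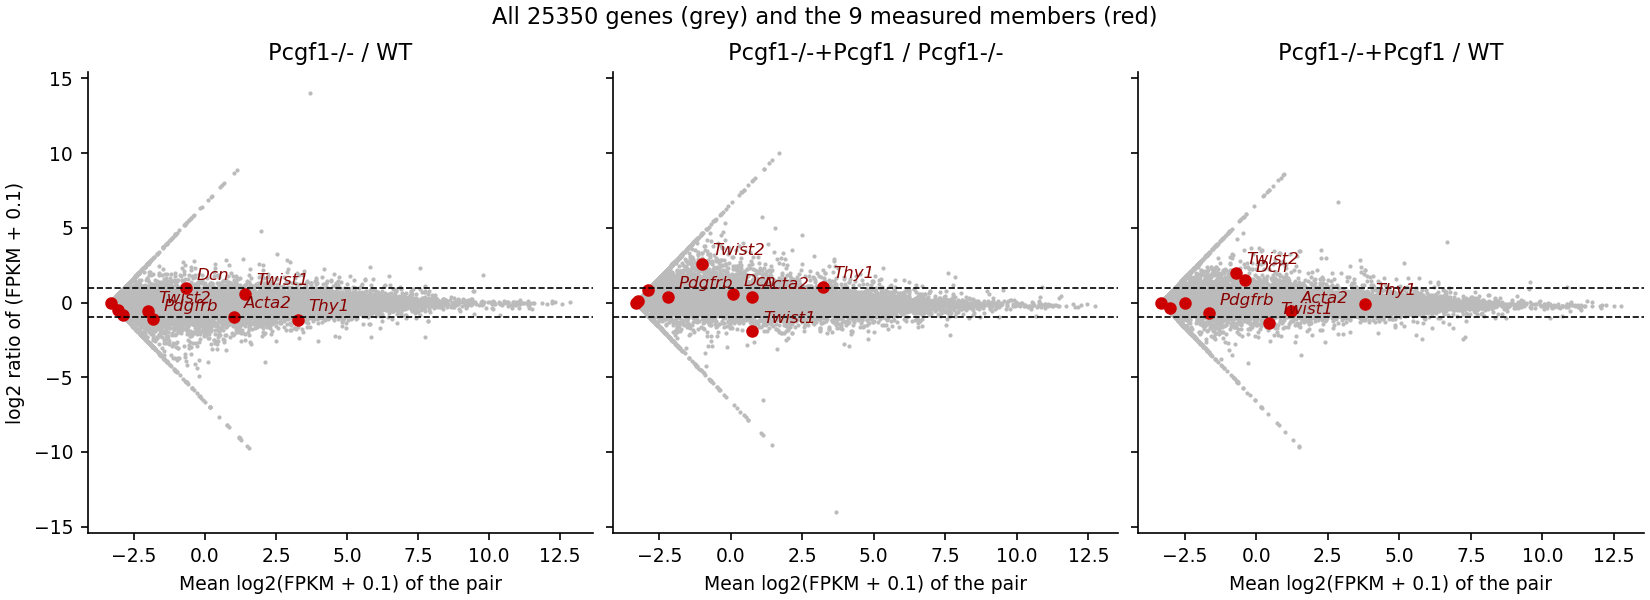
Each panel plots the log2 ratio of (FPKM + 0.1) of one comparison against the mean log2(FPKM + 0.1) of the pair, for 25350 genes in grey and the 9 measured members in red, with dashed lines at 2-fold. Most members lie at the low end, where the grey points spread most, and Thy1 is the member with the highest mean level.

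The summed level of the 9 members was 19.97 FPKM in WT, 11.9 in Pcgf1-/- and 18.5 in the rescued cells. Tagln, at 34.0 FPKM in WT, is not in this sum because it could not be measured in the other samples. The course of a sum over all 10 members is thus not known. The sum was lowest in Pcgf1-/-, with a log2 ratio to WT of -0.75. Thy1 made up 71.2% of the sum in WT, 53.7% in Pcgf1-/- and 72.6% in the rescued cells. Without Thy1 the 8 other members summed to 5.76 FPKM in WT, 5.52 in Pcgf1-/- and 5.08 in the rescued cells, a log2 ratio of Pcgf1-/- to WT of -0.061. The lower sum in Pcgf1-/- was therefore carried by Thy1, and in the 8 others the higher Twist1 and Dcn offset the lower Acta2 and Pdgfrb.

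**Figure D4:**
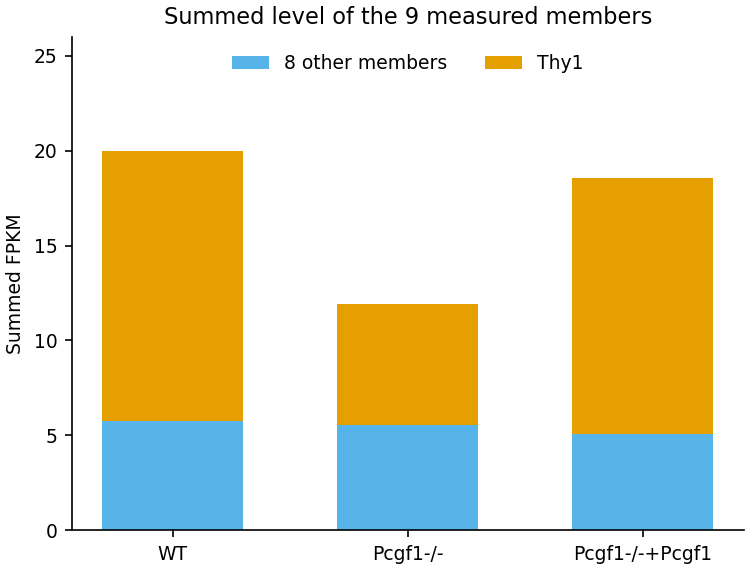
Stacked bars of the summed FPKM of the 9 measured members in each sample, split into Thy1 and the 8 others, from 0 upward. The part of the 8 others lies between 5.08 and 5.76 FPKM in the 3 samples, and the part of Thy1 is smallest in Pcgf1-/-.

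Other genes of fibroblasts and their matrix were lower in Pcgf1-/- more often than higher. Of 33 such genes 29 were measured, and 5 of these (Fap, Fmod, Aspn, Islr and Mgp) were listed at 0 in all samples. In Pcgf1-/- 7 were more than 2-fold lower than in WT and 0 were higher, a share of 24.1% with a median log2 ratio of -0.20. Over all genes 7.14% passed, and lower calls (4.98%) were more frequent than higher ones (2.16%) there too. Among the 13424 genes above 0 in one of these samples 13.5% passed, and their median log2 ratio was -0.12. The list was drawn up with earlier results of these data known, so the count is no independent support. Their summed level was 483 FPKM in WT, 443 in Pcgf1-/- and 451 in the rescued cells. Sparc alone made up 227, 266 and 254 FPKM of these sums and was lowest in WT. The part of fibroblast RNA in the lower Thy1 of Pcgf1-/- was not tested.

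Serpinf1, which encodes a secreted serpin, had 7.44 FPKM in WT, 1.10 in Pcgf1-/- and 9.36 in the rescued cells, with a log2 ratio of Pcgf1-/- to WT of -2.65. Col1a1 had 1.88, 0.390 and 2.21 FPKM in the same order, and Col1a2, the other chain of type I collagen, had 0.635, 0.0213 and 0.148. Fstl1, a secreted glycoprotein, had 49.9 FPKM in WT, 19.7 in Pcgf1-/- and 36.2 in the rescued cells. Each of these 4 genes was lowest in Pcgf1-/-. Sparc, the highest gene of the list, was not lower in Pcgf1-/-: it had 227 FPKM in WT and 266 in Pcgf1-/-. Col6a1, Mmp2 and Timp3 were the other genes more than 2-fold lower, with log2 ratios between -1.18 and -1.06.

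In Pcgf1-/-+Pcgf1 against Pcgf1-/-, 10 of the 29 genes were more than 2-fold higher and 1, the membrane protease Mmp14, was lower, with a median log2 ratio of 0.42, against 6.35% of all genes higher and 2.22% lower. Mmp14 had 13.5 FPKM in WT, 25.1 in Pcgf1-/- and 7.98 in the rescued cells, the same order as Twist1. Against WT 3 genes were more than 2-fold higher in the rescued cells (Bgn, Mfap5 and Col6a3) and 1 (Col1a2) was lower. Over all genes 3.99% were higher and 2.36% lower there. Among the 16 listed genes with at least 1 FPKM in one of these samples 1 passed, against 6.49% of all such genes. Bgn, a proteoglycan related to decorin, had 0.203 FPKM in WT, 0.0645 in Pcgf1-/- and 0.951 in the rescued cells.

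The contractile and cytoskeletal genes, to which Acta2 and Tagln belong, were measured for 15 of 16 listed. In Pcgf1-/- 3 were more than 2-fold lower than in WT (Cnn1, Actg2 and Ankrd1) and 0 were higher, with a median log2 ratio of -0.33. Over all genes 4.98% were lower and 2.16% higher, and the median was -0.12 over genes above 0 in one of these samples. Ankrd1 had 0.106 FPKM in WT and was listed at 0 in Pcgf1-/-. Among the 12 listed genes with at least 1 FPKM in one of these samples, 1 was lower, against 6.11% of all such genes. Cnn1, a smooth muscle calponin, had 2.82 FPKM in WT, 0.547 in Pcgf1-/- and 1.40 in the rescued cells, the same order as Acta2. Actg2, the enteric smooth muscle actin, had 0.325, 0.0408 and 0.298 FPKM. Tpm1, the highest gene of the list, stayed within 2-fold in each comparison, with 109 FPKM in WT, 108 in Pcgf1-/- and 87.6 in the rescued cells. In Pcgf1-/-+Pcgf1 3 genes were more than 2-fold above Pcgf1-/- (Cnn1, Actg2 and Myh11), and 0 passed against WT. Over all genes 6.35% were higher than in Pcgf1-/-, and 6.34% passed against WT.

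Of 12 other mesenchymal transcription factors 10 were measured, and 4 of them reached 1 FPKM in one of the samples. Snai2 and Meox2 were more than 2-fold lower in Pcgf1-/- than in WT, and 0 were higher, against 4.98% lower and 2.16% higher over all genes. Both were low: Snai2 had 0.206 FPKM in WT and 0.0382 in Pcgf1-/-, and Meox2 had 0.220 and 0.0189. Of the 4 that reached 1 FPKM, 0 were more than 2-fold lower, against 6.11% of all genes at that level. Tbx15 had 0.187 FPKM in WT, 0.213 in Pcgf1-/- and 0.987 in the rescued cells, and Meox1 had 0.0379, 0.110 and 0.416. Tbx15 and Meox1 were more than 2-fold higher in the rescued cells than in either other sample, as was Twist2. Over all genes 6.35% were higher than in Pcgf1-/- and 3.99% higher than in WT. Snai1, a factor of epithelial-mesenchymal transition, had between 4.14 and 5.21 FPKM.

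Among the ES cell markers, 8 of 10 were measured and 0 passed 2-fold between Pcgf1-/- and WT, with a median log2 ratio of 0.14. Over all genes 7.14% passed there, and 8.57% between Pcgf1-/-+Pcgf1 and Pcgf1-/-. Nanog was the only measured one past 2-fold in Pcgf1-/-+Pcgf1 over Pcgf1-/-, at 46.3 FPKM in Pcgf1-/- and 123 in the rescued cells. Their summed level was 2223 FPKM in WT, 2241 in Pcgf1-/- and 1976 in the rescued cells.

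**Figure D5:**
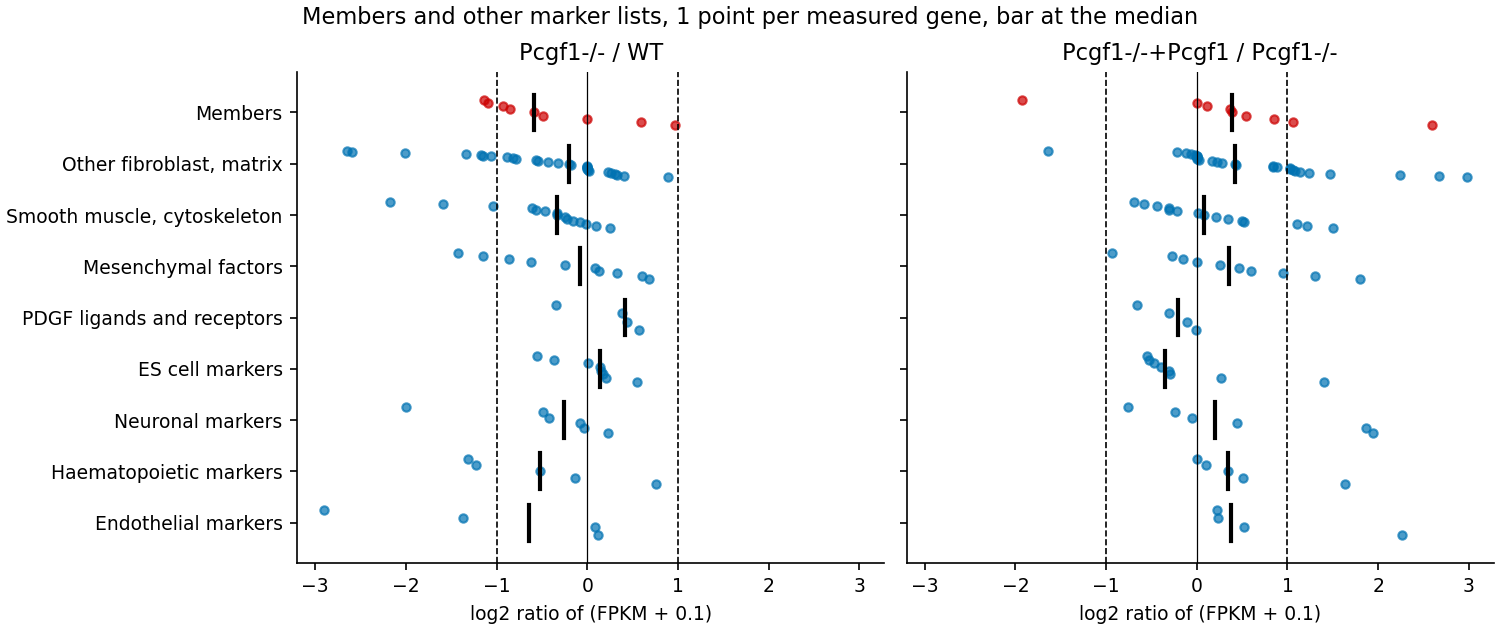
log2 ratio of (FPKM + 0.1) for the measured genes of each list, 1 point per gene and a black bar at the median, for Pcgf1-/- over WT and Pcgf1-/-+Pcgf1 over Pcgf1-/-, with dashed lines at 2-fold. The members spread to both sides of 0 in each panel, and the other fibroblast and matrix genes have 7 points past the lower line and 0 past the upper line in the first panel.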

How the data were processed

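RNA-seq of 3 samples, 1 per condition, was analysed. Per the labels, reads were mapped to mm10 with TopHat2 2.0.12, and Cufflinks 2.2.1 and HTSeq 0.6.0 are named in the submitters' processing notes. The authors deposited FPKM values per transcript event, with 62.0% to 63.6% of the rows at 0. The program that lists the events is not given in the sources used here. The files hold no counts, so the depth is known only through the steps of low values.

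A gene's level is the larger of 2 totals, the FPKM over its TSS (first-exon) rows and over its TTS (last-exon) rows. Rows with several names, no name or a date as name were left out, which left 25350 genes listed in all samples. Ratios were taken on FPKM plus 0.1, a scale that understates the change of low genes, and were called past 2-fold without a test. The members, lists and settings were chosen with earlier results of these data known. Named were all members and, among the list genes highest in a list or past 2-fold, a part only. An unnamed list gene can therefore have passed 2-fold. The 3 genes nearest in course were also sought for each of the 2 members highest in WT, which could be done for Thy1 only. Of the lists, 5 are given with the comparisons and 3, of neuronal, haematopoietic and endothelial genes, after them. In all, 6 planned settings and 1 added later were tried. Positions are from GENCODE vM21 (mm10) and promoters from RefSeq (GRCm38.p6). The computation of the calls was checked first on simulated data with large planted changes in genes well above 0 and no noise. That check says nothing on low genes or on ratios near 2-fold. Python 3.11.15, numpy 2.4.6, pandas 2.3.3 and matplotlib 3.10.9 were used.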

Additional observations from a re-analysis of the deposited data

Results flagged for a closer look

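Transcripts of Pdgfrb that include an exon skipped in the other listed form had 0.0752 FPKM in Pcgf1-/-+Pcgf1 and were listed at 0 in WT and Pcgf1-/-. This was singled out because exon events were not part of the comparisons and the value lies above that of WT. The level is at the low end of the file, and its depth does not allow a statement on the exon. In the locus that carries the names Tagln and Sidt2 together, the first exon of Sidt2 had 14.9 FPKM in Pcgf1-/- and 10.2 in Pcgf1-/-+Pcgf1. The same exon, listed under Sidt2 alone, had 11.01 FPKM in WT. It was singled out because loci with several names were left out of the comparisons and the value in Pcgf1-/- lies above that of WT. The spread within a condition is not known.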

How the results depend on the processing

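The number of members past 2-fold depended on the pseudocount. Between Pcgf1-/- and WT it was 2, and it became 5 with 0.01 FPKM (Lum and Prrx1, each listed at 0 in Pcgf1-/-, and Dcn were added), 1 with 1 FPKM (Thy1) and 1 among the 3 members with at least 1 FPKM. The share over all genes moved likewise, from 7.14% to 12.9%, 1.79% and 9.09% under these settings. With 1 FPKM it went from 3 to 1 (Twist1) for Pcgf1-/-+Pcgf1 over Pcgf1-/- and from 3 to 0 over WT, with 2.31% and 1.3% of all genes. Leaving out Thy1, a setting chosen after seeing the data, moved the log2 ratio of the summed level from -0.75 to -0.061 for Pcgf1-/- over WT and from 0.64 to -0.12 for Pcgf1-/-+Pcgf1 over Pcgf1-/-. The share of other fibroblast and matrix genes past 2-fold between Pcgf1-/- and WT, 24.1%, became 40.0% among genes with at least 1 FPKM and 10.3% with a pseudocount of 1. For Pcgf1-/-+Pcgf1 over Pcgf1-/- it went from 37.9% to 10.3% with a pseudocount of 1. Over WT it went from 13.8% to 6.90% with last-exon rows only, 6.25% with the filter, 20.7% with a pseudocount of 0.01 and 3.45% with 1. The share over all genes in that comparison was 6.34%, and 7.03%, 6.49%, 11.8% and 1.3% under these settings in the same order. Of 130 single-gene ratios under the planned settings, 118 stayed on their side of 2-fold, 6 crossed it outward, 6 crossed it inward and 0 changed sign past it. Of the 118, those with first-exon rows only (24), last-exon rows only (21) and the filter (13) equalled the main ratios, so they could not cross. All crossings came with the other pseudocounts or the median of ratios. No paired analysis was possible because each condition has 1 sample, and for the same reason no replicate could be left out. The depth limits Lum, Prrx1, Postn and the lower values of Twist2.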

Other observations

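Thy1 is also a marker of neurons and T cells, so lists for these and related cells were read in the same way. Over all genes, 4.98% passed 2-fold downward and 2.16% upward in Pcgf1-/- against WT, and the lists are short. Of 7 neuronal markers 6 were measured, 1 (Syt1, a synaptic vesicle protein) was more than 2-fold lower in Pcgf1-/- than in WT and 0 were higher. Syt1 had 0.334 FPKM in WT, 0.009 in Pcgf1-/- and 0.298 in the rescued cells. In the rescued cells 2 of the 6 (Syt1 and Rbfox3) were more than 2-fold above Pcgf1-/-, and 1 (Rbfox3) was above WT. In both comparisons 0 were lower, and over all genes 6.35% and 3.99% were higher. Rbfox3 took another course than Thy1, with 1.44 FPKM in WT, 1.001 in Pcgf1-/- and 4.12 in the rescued cells. Stmn2, the highest of the neuronal markers, had 148 FPKM in WT, 144 in Pcgf1-/- and 138 in the rescued cells. Of 5 haematopoietic markers 2 were more than 2-fold lower in Pcgf1-/- (Cd3e and Tal1) and 0 were higher. Cd3e, a subunit of the T cell receptor complex, had 1.40 FPKM in WT, 0.540 in Pcgf1-/- and 1.89 in the rescued cells and was lowest in Pcgf1-/-. In the same order Tal1 had 0.641, 0.199 and 0.222 FPKM, and Gata1, which took another course, had 0.266, 0.518 and 0.779. Ptprc had 0.0098 FPKM in WT and was listed at 0 in the other samples.

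Of 4 endothelial markers 2 were more than 2-fold lower in Pcgf1-/- than in WT, Kdr and Tek, both receptors of vessel growth factors. Over all genes 4.98% were lower by this rule. Tek had 12.8 FPKM in WT, 4.88 in Pcgf1-/- and 7.03 in the rescued cells. Pecam1, which ES cells also express, had between 14.6 and 18.0 FPKM.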
